A study of Mus musculus with 8 samples.

Results

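The Snora genes are the H/ACA box small nucleolar RNAs (snoRNAs) that carry the symbol Snora in mouse. Members were the rows of the authors' count table whose Ensembl identifier is annotated in GENCODE vM21 (GRCm38) as a snoRNA with a symbol starting with Snora. Of 42 such genes in the annotation, 40 were among the 16119 genes of the table, under 39 symbols, because Snora43 is annotated as a gene of 127 nt and an overlapping one of 139 nt. Snora35 and 1 of the annotated Snora16a genes were not in it. DC-restricted progenitors (CDPs), the bone marrow cells from which dendritic cells arise, were flow-sorted as lineage-negative cells with intermediate c-kit, low Sca1, CD115 and Flt3, about 50000 per library. They came from C57BL/6 males (C57BL/6J in the methods) with diet-induced obesity, labelled DIO, fed a high fat diet (HFD, 60 kcal% fat) for 16 weeks, or from controls of matched age, labelled DIO-Control, fed a control diet (CF, 10 kcal% fat). There were 4 libraries per diet, and the sources do not say whether a library held cells of 1 mouse. The comparison asked which Snora RNAs differed between CDPs of HFD and CF mice.

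H/ACA box snoRNAs fold into a pair of hairpins joined by a hinge with the H box (ANANNA, where N is any base) and end in a tail with the ACA box. In the nucleolus they pair with rRNA through pockets in the hairpins, where the bound pseudouridine synthase dyskerin turns a chosen uridine into pseudouridine, and a few members serve in the cleavage of pre-rRNA instead. Most mammalian members have no promoter of their own: they lie in introns of a host gene, often one for ribosomes or translation, and are trimmed from the spliced intron while bound by the proteins Dkc1, Nop10, Nhp2 and Naf1. A Snora RNA and its host mRNA therefore start from 1 transcript and are counted separately.

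The 4 Snora genes that passed the test between the diets are shown first as sequences, followed by Snora75, which had the lowest log2 fold change of the 40. The sequences are the annotated genes in GENCODE vM21, 5′ to 3′, with T for U. Capitals mark the ANANNA match in the middle one of 3 equal stretches that was left most unpaired in the predicted fold, and the ACA box where it lies 3 nt before the annotated end.
Snora64: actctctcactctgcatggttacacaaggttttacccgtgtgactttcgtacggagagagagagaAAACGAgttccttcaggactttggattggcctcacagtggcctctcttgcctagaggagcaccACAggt
Snora73b: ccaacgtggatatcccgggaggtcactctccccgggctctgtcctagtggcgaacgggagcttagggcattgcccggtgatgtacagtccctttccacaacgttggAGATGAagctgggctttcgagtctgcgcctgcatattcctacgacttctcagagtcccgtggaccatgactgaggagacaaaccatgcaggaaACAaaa
Snora81: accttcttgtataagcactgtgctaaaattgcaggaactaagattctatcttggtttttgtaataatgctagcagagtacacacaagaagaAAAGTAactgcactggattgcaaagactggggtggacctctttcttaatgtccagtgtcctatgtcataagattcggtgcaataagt
Snora3: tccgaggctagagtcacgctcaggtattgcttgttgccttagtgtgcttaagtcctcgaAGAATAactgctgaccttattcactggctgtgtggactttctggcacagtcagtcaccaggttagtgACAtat
Snora75: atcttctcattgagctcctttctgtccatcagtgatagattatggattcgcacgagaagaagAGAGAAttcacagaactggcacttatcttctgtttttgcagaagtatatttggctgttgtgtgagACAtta
On GRCm38, Snora64 lies at chr17:24720772-24720905 (plus strand) in an intron of Rps2 in some transcripts and in an exon in others. Snora73b lies at chr4:132352322-132352526 (minus strand) in an intron of Snhg3. Snora81 lies at chr16:23110756-23110933 (plus strand) in Eif4a2, and no ACA stands 3 nt before its annotated end. Snora3 lies at chr7:109520120-109520251 (plus strand) in Rpl27a, and Snora75 at chr1:86351169-86351301 (minus strand) in Ncl. Snora81, Snora3 and Snora75 are intronic or exonic in these hosts depending on the transcript.

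All 40 Snora genes had a lower fitted level in HFD than in CF, and 4 of them, Snora64, Snora73b, Snora81 and Snora3, fell at an adjusted p below 0.05 (edgeR's quasi-likelihood test with Benjamini-Hochberg adjustment over all 15837 genes tested). None passed in the other direction. With DESeq2, 36 Snora genes were called, where 3.18% of all genes were called lower. With near-identical genes summed none of them, and none of all genes, was called (edgeR). The calls were not stable to leaving out a library: 11 Snora genes were called lower without HFD replicate 1 (1.05% of all genes), 10 without CF replicate 4 (0.968%) and none without any of the other 6, while 37 to 39 were lower at an unadjusted p below 0.05 in these fits. In the test of all libraries 0.423% of all genes were called lower in HFD and 0 higher. Of the 651 non-coding genes of up to 200 nt other than Snora genes, 7.83% were called lower. At an unadjusted p below 0.05, 38 of 40 Snora genes were lower and none higher, where 5.34% of all genes were lower. In 33 of 40 every HFD library lay below every CF library in log2 CPM (CPM, counts scaled to library size with TMM factors, with a prior count of 2), against 3.58% of all genes, while 2.58% of all genes had every HFD library above every CF library and no Snora gene did. Among those 651 other short genes, 79.3% were lower at an unadjusted p below 0.05 (edgeR). In 55.3% of them every HFD library lay below every CF library, as in 86.0% of the 57 rRNA genes of up to 200 nt. The median log2 fold change was -1.45 over the Snora genes, which is 36.6% of the CF level, and 0.055 over all genes. It ranged from -3.05 for Snora75 to -0.75 for Snora68. Adjusted p ranged from 0.040 to 0.861 and was below 0.1 for 15. In sorted cells measured in bulk, fewer cells of a type and less RNA per cell cannot be told apart.

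Snora68 differed least of the 40. It had 29.4, 33.1, 57.6 and 60.7 CPM in HFD and 116, 70.8, 74.5 and 42.9 CPM in CF, where CF replicate 4 lay between the HFD libraries (log2 fold change -0.75 ± 0.34, edgeR, unadjusted p = 0.056, adjusted p = 0.60).

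The counts behind these values ranged from 7 to 23615 per gene and library. All 40 passed the filter on low counts, with a mean of at least 3.01 CPM over the 8 libraries. Library totals were 28203651 to 48409689 counts. Summed over the 40 genes, Snora counts were 0.122%, 0.165%, 0.236% and 0.231% of all counts in HFD replicates 1 to 4 and 0.481%, 0.372%, 0.377% and 0.346% in CF replicates 1 to 4. The share was 0.188% ± 0.055 (SD, n = 4) in HFD and 0.394% ± 0.060 (SD, n = 4) in CF, without overlap.

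**Figure D1:**
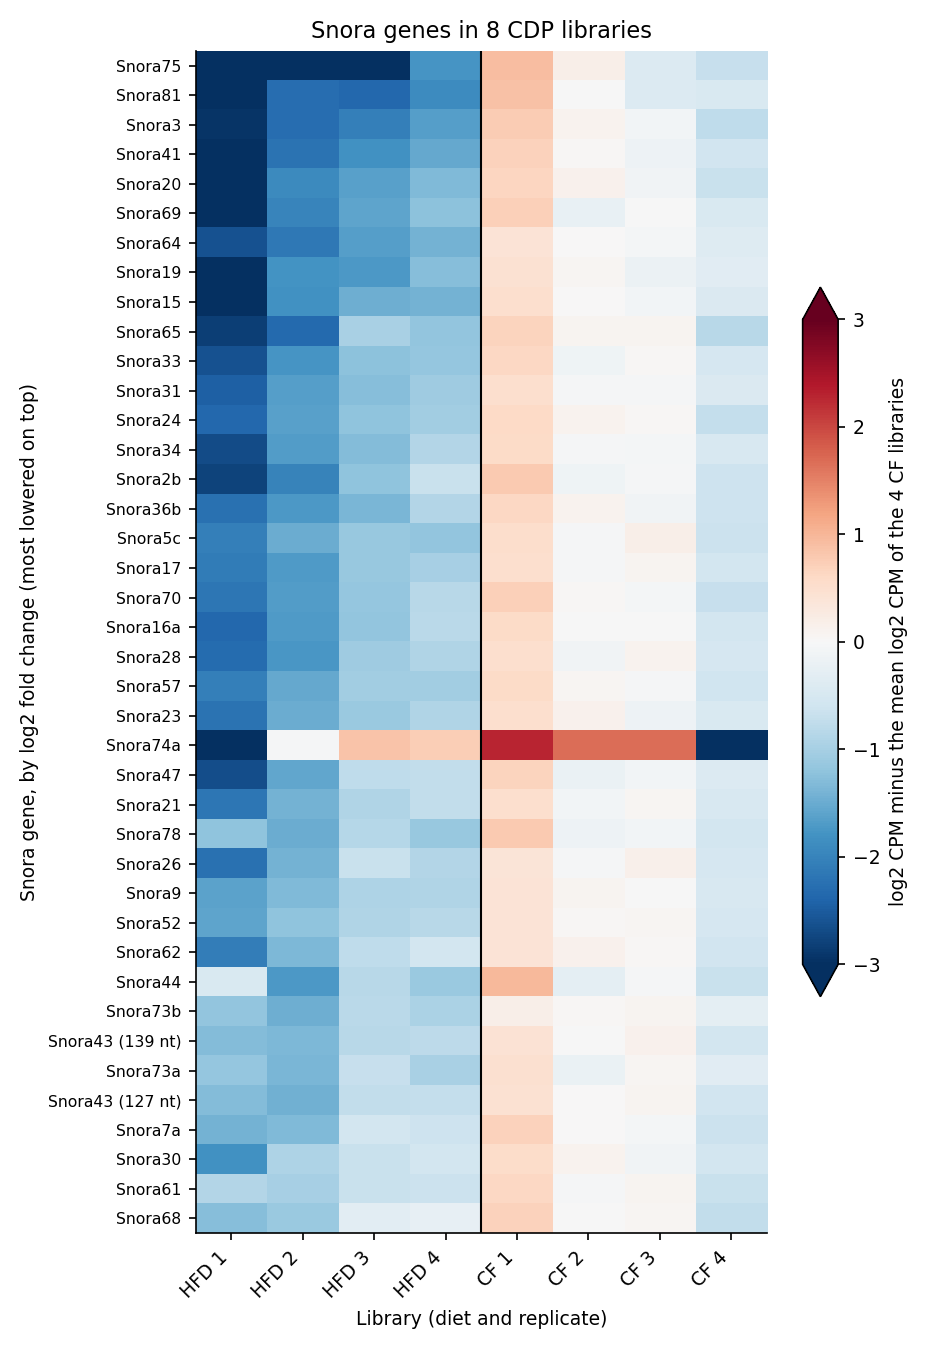
Each row is 1 Snora gene and each column 1 library, and the colour gives log2 CPM minus the mean log2 CPM of the 4 CF libraries, with values past 3 in size drawn at the end of the scale. CF replicate 1 is the highest library in 40 of 40 rows, HFD replicate 1 the lowest in 32, and the row of Snora74a stands out because its CF replicate 4 is near 0 CPM.

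The libraries did not differ evenly. CF replicate 1 was the highest library for 40 of 40 Snora genes, and HFD replicate 1 the lowest for 32, with HFD replicate 2 lowest in 7 and CF replicate 4 in 1. Relative to the CF mean, the median Snora gene lay at -2.22, -1.64, -1.09 and -0.92 on the log2 scale in HFD replicates 1 to 4, and at 0.57, 0.01, -0.02 and -0.55 in CF replicates 1 to 4. The gap between the highest HFD and the lowest CF value of these was smaller than the spread within either diet. HFD replicate 1 also stood apart in neutrophil transcripts: all 12 genes of a neutrophil list were highest there, and their summed level was 20610 CPM, against 3778, 1449 and 1101 CPM in HFD replicates 2 to 4 and 2157, 6946, 6487 and 6173 CPM in CF replicates 1 to 4. Summed Snora levels were 1208, 1461, 2129 and 2181 CPM in HFD replicates 1 to 4 and 6017, 4231, 4182 and 2927 CPM in CF replicates 1 to 4. Without the first replicate of both diets, an alternative added after seeing the data, the median log2 fold change was -1.01, with 17 Snora genes called lower, where 2.21% of all genes were. Of the sort markers, Kit (34.2 to 53.6 CPM), Csf1r, which encodes CD115 (79.4 to 132.9 CPM) and Flt3 (88.8 to 378 CPM) were present in every library, and Ly6a, which encodes Sca1, was low (1.37 to 3.25 CPM). HFD replicate 1 also had the lowest sum of the 4 sort markers (231 CPM, against 383.8 to 514.2 CPM in the other libraries). Summed B cell genes, all 6 of them tested, were 776.2 CPM in HFD replicate 1, 413.8 to 527.6 CPM in the other HFD libraries and 278.5 to 437.6 CPM in CF. The 6 erythroid genes summed to 457 CPM in HFD replicate 1, 62.4 to 105.6 CPM in the other HFD libraries and 61.5 to 105.6 CPM in CF. Summed plasmacytoid DC genes (4 genes) were 164.1 to 374.6 CPM in HFD and 170.8 to 217.4 CPM in CF, and monocyte genes (4 genes) 215.6 to 510.0 and 395.6 to 565.0 CPM. Of the T and NK list, Cd3e and Cd3g were not tested and the other 2 genes summed to 25.96 CPM in HFD replicate 1 and at most 19.2 CPM elsewhere. The part of these cells in the Snora difference was not tested.

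Among Snora genes in ribosomal protein genes, Snora64 in Rps2 fell to 26.6% of its CF level. Its CPM was 9.53, 13.3, 18.8 and 21.9 in HFD replicates 1 to 4 and 78.1, 59.4, 56.6 and 45.1 in CF replicates 1 to 4, and the highest HFD library lay far below the lowest CF library. The means were 15.9 ± 5.53 and 59.8 ± 13.7 CPM (SD, n = 4 each), a log2 fold change of -1.91 ± 0.27 (SE; edgeR, adjusted p = 0.040). Snora3 in Rpl27a had 3.21, 5.13, 5.98 and 7.91 CPM in HFD and 41.8, 26.6, 23.4 and 14.6 CPM in CF, with CF replicate 1 well above the other CF libraries. It fell by 2.25 on the log2 scale (SE 0.36; edgeR, adjusted p = 0.046) and was not called with limma voom (adjusted p = 0.058). Snora52 in Rplp2, a stalk protein of the large subunit, had 23.9, 30.6, 37.9 and 39.8 CPM in HFD and 94.4, 72.6, 74.3 and 50.2 CPM in CF (log2 fold change -1.14, edgeR, adjusted p = 0.078). Snora7a in Rpl32 was among the 5 Snora genes with the highest level per length, and its diets overlapped: 118.6, 127.1, 214.1 and 205.5 CPM in HFD and 507.8, 317.7, 303.1 and 203.3 CPM in CF (log2 fold change -1.001, edgeR, adjusted p = 0.27). Over the 10 Snora genes in hosts with a numbered Rpl, Rplp or Rps symbol the median log2 fold change was -1.55, with 2 called. Snora62 in Rpsa, also a ribosomal protein gene, was counted with the other protein-coding hosts (log2 fold change -1.12, edgeR, adjusted p = 0.26).

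In other protein-coding genes, Snora81 in Eif4a2, an RNA helicase of translation initiation, fell by 2.49 on the log2 scale (SE 0.39; edgeR, adjusted p = 0.044). Its CPM was 3.66, 7.74, 7.35 and 10.1 in HFD and 69.2, 37.2, 28.3 and 27.2 in CF. The means, 7.20 ± 2.65 and 40.5 ± 19.7 CPM (SD, n = 4 each), put HFD at 17.8% of CF in the fit, and without the first replicate of both diets the log2 fold change was -1.88 (edgeR, adjusted p = 0.0039). Snora75 in Ncl, which encodes the nucleolar protein nucleolin, had the largest difference of the 40 but was not called: 0.289, 1.10, 1.13 and 3.11 CPM in HFD and 20.4, 12.1, 7.97 and 6.55 CPM in CF. These stand for 9, 35, 43 and 128 counts in HFD and 790, 381, 253 and 252 in CF. The diets did not overlap, but HFD replicate 1 lay far below and HFD replicate 4 far above the other HFD libraries, and the log2 fold change was -3.05 with an SE of 0.65 (edgeR, adjusted p = 0.11). It was -3.83 without HFD replicate 4 (edgeR, adjusted p = 0.069) and -2.31 without the first replicate of both diets (edgeR, adjusted p = 0.039). Snora41 in Eef1b2, a subunit of the elongation factor eEF1, had 3.98 to 11.9 CPM in HFD and 23.2 to 55.3 CPM in CF (log2 fold change -2.13, edgeR, adjusted p = 0.061). Snora31 in Tpt1 had 5.01 to 12.98 CPM in HFD and 20.2 to 38.5 CPM in CF (log2 fold change -1.56, edgeR, adjusted p = 0.080). Snora5c in Tbrg4 was low throughout, with 1.25 to 2.34 CPM in HFD and 3.28 to 7.44 CPM in CF (log2 fold change -1.48, edgeR, adjusted p = 0.085). Snora30, held by Gm42715, was one of the 4 least lowered: its HFD libraries had 2.44 to 5.95 CPM and its CF libraries 5.87 to 12.6 CPM, with overlap (log2 fold change -0.96, edgeR, adjusted p = 0.32). The median log2 fold change of the 15 Snora genes counted in such hosts, Snora62 in Rpsa among them, was -1.54, with 1 called.

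**Figure D2:**
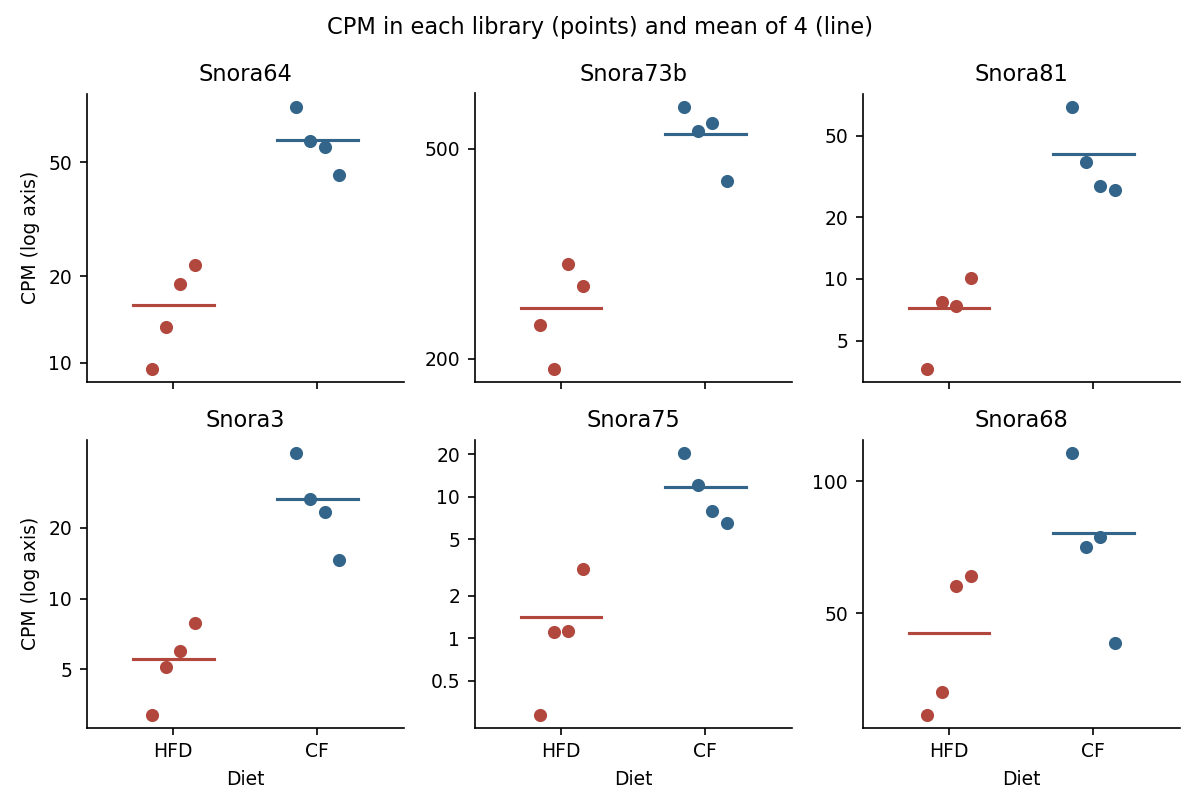
Points give CPM on a log axis in each of the 4 libraries of each diet for the 4 called Snora genes and for Snora75 and Snora68, and lines give the means. The diets do not overlap except in Snora68, where the lowest CF library (42.9 CPM) lies below the highest HFD libraries (57.6 and 60.7 CPM).

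In non-coding host genes, Snora73b was the called member with the smallest change. It belongs to a family known for its part in cleaving pre-rRNA rather than in pseudouridylation, and it lies in Snhg3 together with Snora73a. It had 231.7, 191.7, 302.3 and 274.4 CPM in HFD and 601.1, 540.7, 558.9 and 434.5 CPM in CF. The means were 250.0 ± 48.5 and 533.8 ± 70.9 CPM (SD, n = 4 each), and the gene fell by 1.09 on the log2 scale (SE 0.17; edgeR, adjusted p = 0.043), with the smallest standard error of the 4 called genes. Scaled by library size alone, it was not called (edgeR, adjusted p = 0.059). Snora73a, 98.0% identical to it over 202 aligned nt, had 67.7 to 108.1 CPM in HFD and 137.4 to 242.3 CPM in CF (log2 fold change -1.06, edgeR, adjusted p = 0.080). How reads that fit both genes were counted was not tested, so their division between the 2 is uncertain.

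Snora9 in Snhg15 had the highest level per length of the 40, with 3524 CPM per kilobase in CF. Its CPM was 151.5, 182.1, 241.3 and 246.2 in HFD and 610.2, 483.4, 450.5 and 330.3 in CF (log2 fold change -1.19, edgeR, adjusted p = 0.075). Snora15 in Cct6a, a chaperonin subunit whose gene this annotation classes as a processed transcript, had 37.9, 86.7, 110.8 and 113.8 CPM in HFD and 429.8, 309.2, 286.4 and 227.5 CPM in CF (log2 fold change -1.84, edgeR, adjusted p = 0.075). In neither did the diets overlap. Snhg12 holds Snora44, Snora61 and Snora16a, and these 3 did not behave alike across libraries. Snora16a had 23.3 to 68.0 CPM in HFD and 81.4 to 175.7 CPM in CF without overlap (log2 fold change -1.45, edgeR, adjusted p = 0.14). Snora61 had 51.7 to 66.3 CPM in HFD and 65.2 to 157.9 CPM in CF (log2 fold change -0.86, edgeR, adjusted p = 0.20), and Snora44 had 12.96 to 31.2 and 27.3 to 85.0 CPM (log2 fold change -1.10, edgeR, adjusted p = 0.39). In both of these the diets overlapped, and HFD replicate 2, not HFD replicate 1, was the lowest library. Over the 10 Snora genes in non-coding hosts the median log2 fold change was -1.21.

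For 5 Snora genes, namely Snora17, Snora57, Snora74a and both Snora43 genes, no tested gene other than a snoRNA held them on the same strand. Snora17 was one of the 5 with the highest level per length, with 55.8 to 120.3 CPM in HFD and 164.0 to 341.1 CPM in CF (log2 fold change -1.47, edgeR, adjusted p = 0.085). The Snora43 genes of 127 nt and 139 nt lie on each other and differed by almost the same amount, -1.06 and -1.08 on the log2 scale, at mean levels of 29.6 and 4.10 CPM in CF. Snora74a was the least stable member: its counts were 13, 277, 617 and 622 in HFD and 1682, 901, 912 and 7 in CF. Gm49347, which overlaps it by 96 nt on the same strand, had 70, 1, 1 and 1 counts in HFD and 2, 1, 1 and 264 in CF, high in the libraries where Snora74a was lowest. Summed over both genes, the libraries had 2.66, 8.75, 16.2 and 15.1 CPM in HFD and 43.5, 28.7, 28.8 and 7.04 CPM in CF, so that the diets still overlapped (exact two-sided permutation test of the mean CPM over the 70 splits of 8 libraries, p = 0.17). For 4 of the 5 the diets did not overlap, Snora74a being the exception. Every HFD library lay below every CF library in 55.3% of the 651 other short non-coding genes and in 3.58% of all genes.

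Most Snora genes have a host gene in the same libraries as an internal reference. For 35 of the 40, a tested gene held them on the same strand, 31 hosts in all, of which 28 held a single Snora gene. Of the hosts, 17 were higher in HFD and 14 lower, at a median of 0.035 on the log2 scale and a range of -1.65 to 0.46. Only Snhg3 was called, and it fell by 1.11 on the log2 scale (edgeR, adjusted p = 0.043). The Snora gene had a lower log2 fold change than its host in 30 of 35 pairs. In 25 of 35 pairs the log2 ratio of Snora to host was lower in every HFD library than in every CF library, where 16.7% of the 1292 genes nested in another tested gene showed that. The median difference of the log2 ratio was -1.46 over the 35 pairs and -0.27 over the nested genes. The nested genes were of any length and kind and included these pairs. Short ones among them were not set apart, so a share for other short RNAs in hosts is missing here. Non-coding genes of up to 200 nt other than Snora genes had a median log2 fold change of -1.27 themselves. The 25 pairs without overlap have the smallest p that the exact two-sided permutation test can give here (p = 0.0286). This p follows from the lack of overlap and adds nothing to it. None of the 35 p values was adjusted.

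The pairs with called Snora genes differed among themselves. The log2 ratio of Snora81 to Eif4a2 was -4.25, -3.07, -3.04 and -2.64 in HFD and -0.08, -0.68, -1.11 and -1.23 in CF, while Eif4a2 itself had 65.0 ± 4.34 CPM in HFD and 64.4 ± 6.05 CPM in CF (SD, n = 4 each). The log2 ratio of Snora75 to Ncl was -9.56, -7.91, -8.12 and -6.67 in HFD and -3.91, -4.50, -5.30 and -5.63 in CF, with Ncl at 297.6 ± 33.2 and 306.9 ± 22.1 CPM. In these pairs the means of the host differed by less than their spread, and the ratios did not overlap. Rps2 and Rpl27a were somewhat lower in HFD without being called (-0.30 and -0.55 on the log2 scale, edgeR, adjusted p = 0.67 and 0.48), and the ratios of Snora64 and Snora3 to them differed by -1.65 and -1.65 on the log2 scale, without overlap. Snora73b was the opposite case. Its log2 ratio to Snhg3 was 0.87, 0.73, 0.89 and 0.88 in HFD and 0.70, 0.92, 0.83 and 0.94 in CF, a difference of -0.006, since Snhg3 fell from 299.2 ± 59.2 CPM in CF to 138.8 ± 21.6 CPM in HFD. Snora73a likewise kept its ratio to Snhg3 (difference 0.05). It is exonic in some transcripts of Snhg3, so reads of both can overlap. The part of such reads in the level of Snhg3 and in either ratio was not tested. Snora5c and Tbrg4 were between these cases: Tbrg4 differed by -1.08 on the log2 scale (edgeR, adjusted p = 0.088), and the ratio differed by -0.38 without overlap. For the 3 Snora genes of Snhg12 the ratio overlapped, and Snhg12 ranged from 5.65 to 23.1 CPM in HFD and from 14.3 to 99.1 CPM in CF.

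**Figure D3:**
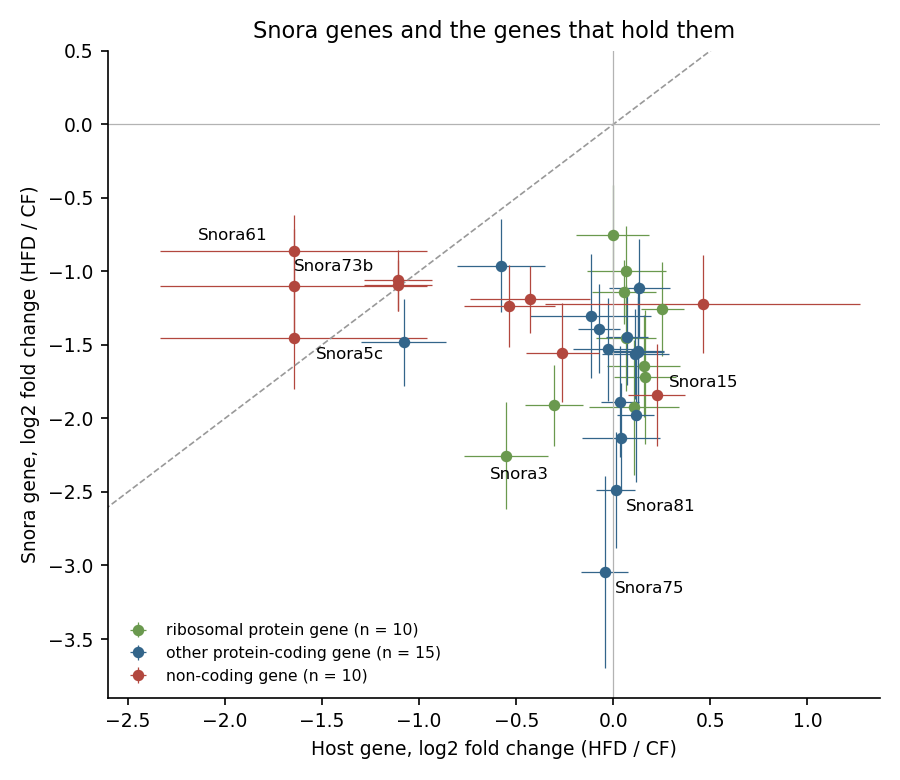
Each point is a Snora gene with its host, 35 pairs in all, with the host's log2 fold change on the x axis, that of the Snora gene on the y axis, bars for standard errors, colours for the kind of host and a dashed line where both are equal. Most points lie near 0 on the x axis (median 0.035 over the 31 different hosts) and below 0 on the y axis. The genes of Snhg3 (Snora73a and Snora73b) lie on the line. Rpsa, the host of Snora62, is coloured with the other protein-coding hosts.

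By position, 14 of the 35 lay in introns in every annotated transcript of the host and 21 in an intron or an exon depending on the transcript. For the 21, reads of the snoRNA and of the host exon can overlap. The ratio was lower without overlap in 11 of the 14 and in 14 of the 21, with median differences of -1.52 and -1.32. The median distance from the 3′ end of the snoRNA to the end of the intron was 172 nt for the 14 and 83 nt for the 21. Per kilobase of exon, all 35 Snora genes had a higher mean CPM than their hosts in CF (1.203 to 4648 times, median 11.0). The highest value, of Snora26 to Dancr, rests on a host with a mean of only 0.37 CPM in CF. In HFD, Snora3, Snora31, Snora65, Snora69 and Snora75 had a lower one (0.293 to 0.816 of the host), and the median was 4.54 times.

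The difference was shared with other short RNAs. The median log2 fold change was -1.30 over the 74 Snord genes, the C/D box snoRNAs that guide methylation of rRNA, and all 74 were lower in HFD, with 1 called. It was -1.41 over 192 snoRNA genes with other names, -1.25 over 210 snRNA genes, which encode the RNAs of the spliceosome and their copies, and -1.65 over 57 rRNA genes of up to 200 nt, where 27 were called. Over 11762 nuclear protein-coding genes it was 0.07. Non-coding genes of up to 200 nt other than Snora genes took 8.41% to 13.4% of the counts in HFD and 21.4% to 33.5% in CF. Snora counts were 1.45%, 1.49%, 1.99% and 1.72% as large as theirs in HFD and 1.44%, 1.51%, 1.46% and 1.62% in CF, and here the diets overlapped.

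**Figure D4:**
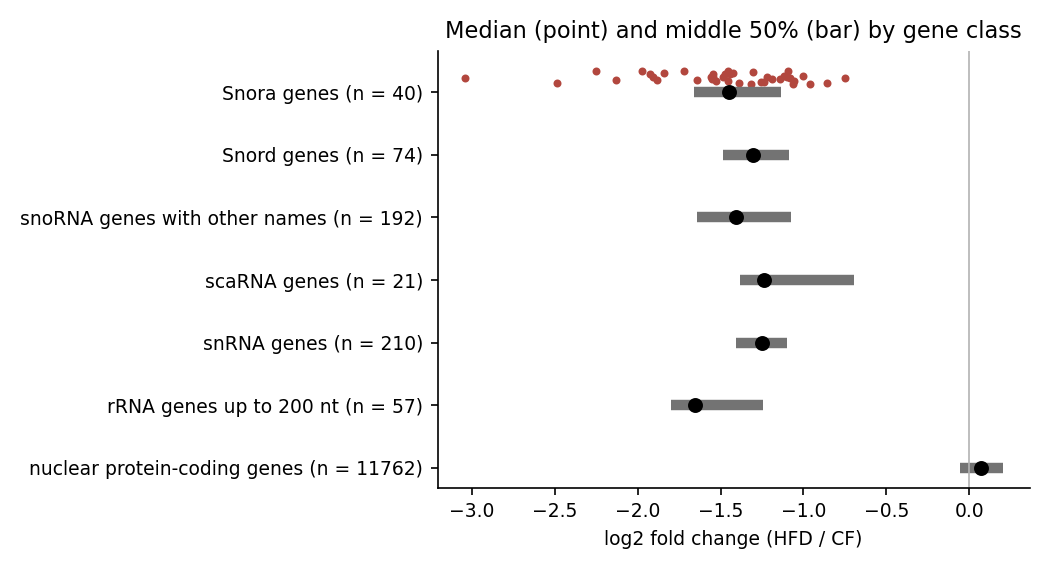
Black points give the median log2 fold change (HFD against CF) of each gene class, grey bars its middle 50% and red dots the 40 Snora genes. All classes of short RNA have a median between -1.24 and -1.65, and the nuclear protein-coding genes lie at 0.07.

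The counts were therefore also scaled to those other short non-coding genes (TMM factors from them alone, an alternative chosen after seeing the data), which moved the median log2 fold change of all genes from 0.055 to 1.26, with 74.9% of all genes called higher in HFD. With so many genes called, the adjustment over all genes is hardly stricter than the unadjusted p. On this scale the Snora median was -0.23, and 27 were below 0 and 13 above it. Adjusted over all genes tested, 7 of 40 Snora genes were called lower, where 3.53% of the 651 other short genes were. At an unadjusted p below 0.05, 9 Snora genes were lower and none higher, where 5.22% of the 651 were lower. The 7 were Snora75 (log2 fold change -1.91), Snora81 (-1.25), Snora3 (-1.01), Snora41 (-0.92), Snora20 (-0.79), Snora64 (-0.73) and Snora15 (-0.66), with adjusted p from 0.0065 to 0.048 (edgeR). Snora20 lies in Tcp1, another chaperonin subunit, and had 8.15 to 39.0 CPM in HFD and 62.4 to 152.8 CPM in CF. Snora73b, called lower on the scale of all genes, stood at 0.13 on the log2 scale here (edgeR, adjusted p = 0.66), and Snora68 had 0.50 (adjusted p = 0.12).

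The members were 121 to 205 nt long (median 132.5 nt). The H and ACA boxes belong to the class that the Snora name stands for, so their presence describes the annotated sequences and the difference from the Snord genes follows from the choice of members. An ACA stood 3 nt before the annotated end in 33 of 40 (82.5%), in none of the 74 Snord genes and in 14.5% of 620 other short non-coding genes. At least 1 ANANNA lay in the middle one of 3 equal stretches of 37 (92.5%), against 33.8% of the Snord genes and 56.0% of the 620. Both motifs were searched on the transcribed strand only, and a match shows the letters, not a working box. The share of G and C ran from 33.3% in Snora19 to 64.1% in Snora78, with a median of 48.5%.

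Snora genes with fewer G and C bases had lower log2 fold changes. Across the 40, Pearson's r of G and C percent with the log2 fold change was 0.59 and Spearman's rho 0.63, as a description, since the genes share the same 8 libraries and some share a host. Across the 620 other short non-coding genes the values were 0.26 and 0.14. The 10 Snora genes with the lowest share (33.3% to 43.2%) had a median log2 fold change of -1.91, and the 10 with the highest (53.5% to 64.1%) one of -1.17. The 7 called lower on the scale of the other short RNAs had 34.4% to 50.8% G and C (median 40.6%), and the other 33 had a median of 49.6%. Length (r = 0.10), predicted folding energy per nt (r = -0.05) and level (log2 mean CPM, r = 0.31) varied less with it, and the host's log2 fold change had r = -0.31 over 35 pairs.

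**Figure D5:**
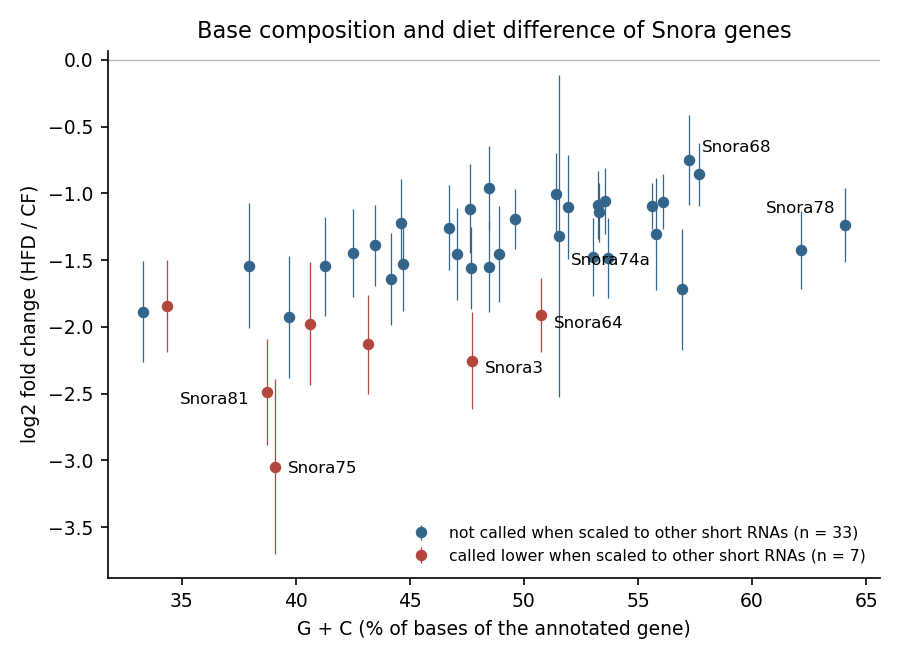
Each point is 1 of the 40 Snora genes, with the share of G and C in its annotated bases on the x axis and its log2 fold change (HFD against CF, bars for standard errors) on the y axis. Red points are the 7 that were called lower when scaled to other short non-coding genes, at 34.4% to 50.8% G and C.

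Near-identical copies bear on how the counts divide. Snora19 had 39, 113, 141 and 207 counts in HFD and 652, 402, 345 and 373 in CF, and its copy Gm23658 had 36, 111, 139 and 203 in HFD and 647, 399, 334 and 307 in CF. The 2 genes were close in every library but CF replicate 4, and whether they share reads was not tested. By sequence, 24 of the 40 had at least 1 annotated gene with 90% identity over 80% of both, and 16 had none, among them Snora64, Snora15, Snora52 and Snora31. For 14 Snora genes such copies of other names were tested, 17 genes in all. All 17 had a lower level in HFD (median -1.51 on the log2 scale), and none was called. Of the 17, 2 are entries of Gm25617 at the same place, and their counts alternate between libraries. One had 147, 115, 1 and 1 counts in HFD and 1, 511, 1 and 344 in CF. The other had 0, 0, 131 and 158 in HFD and 657, 0, 692 and 0 in CF. Their separate log2 fold changes (-1.60 and -2.39) are therefore uncertain. Gm22519, the copy of Snora81 on chromosome 15, differed by -2.17 on the log2 scale (edgeR, adjusted p = 0.053), near that of Snora81. Gm24698, the copy of Snora3, differed by -0.80 (edgeR, adjusted p = 0.85): its counts were 85, 99, 183 and 198 in HFD and 68, 510, 47 and 290 in CF, so that the diets overlapped. Gm26165, a copy of Snora70, held 2689 to 6647 counts in HFD and 6122 to 15599 in CF. With near-identical genes summed into families, no family with a Snora gene was called (edgeR), as was none of all 15536 genes and families, and 36 families with a Snora gene were lower at an unadjusted p below 0.05. Their median log2 fold change was -1.46.

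The proteins that work with H/ACA RNAs were looked at as 3 lists. Of 9 genes for proteins that bind or assemble H/ACA RNAs, 8 had a positive and 1 a negative log2 fold change, with a median of 0.11 and none called. Dkc1, the pseudouridine synthase, had 33.2 ± 3.67 CPM in HFD and 32.2 ± 1.28 CPM in CF (SD, n = 4 each; log2 fold change 0.05, edgeR, adjusted p = 0.96). The core proteins Nop10, Nhp2 and Gar1 had log2 fold changes of -0.02, 0.11 and 0.10, and the assembly factor Naf1 one of 0.12. The helicases Ruvbl1 and Ruvbl2, which help to assemble snoRNA particles, had 0.18 and 0.26, and Nolc1, a nucleolar protein that binds them, 0.08. Shq1, which chaperones dyskerin, was the only one with non-overlapping diets, higher in HFD with 4.39 ± 0.74 against 3.03 ± 0.56 CPM (SD, n = 4 each; log2 fold change 0.53, edgeR, unadjusted p = 0.027, adjusted p = 0.44). None of 8 genes for release and trimming of snoRNAs was called (median 0.002), the lowest p belonging to Mtrex, the exosome's helicase (log2 fold change 0.18, edgeR, adjusted p = 0.66), and Exosc10, the nuclear exosome's exonuclease (0.13, adjusted p = 0.84). None of 12 synthases that work without a guide RNA was called (median 0.16), with Pus3 (0.44, edgeR, adjusted p = 0.77) and Pus10 (0.32, adjusted p = 0.78) lowest in p.

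Most scaRNA genes, which encode guide RNAs of the Cajal body, were lower in HFD as well. The list held all 21 tested genes annotated as scaRNA and Terc, the RNA of telomerase, which carries an H/ACA domain. The scaRNA genes were not selected for the H/ACA box, and some, such as Scarna2 and Scarna17, encode RNAs of the C/D box type. Of the 22 genes, 20 had a negative and 2 a positive log2 fold change. The positive ones were Gm23119 (0.02, SE 0.19) and Scarna13 (0.98, SE 1.62). Scarna13 had 93.8, 113.3, 152.9 and 129.3 CPM in HFD and 0, 0, 140.2 and 107.1 CPM in CF, so that its sign rests on CF replicates 1 and 2, where it had no counts. The median of the 22 was -1.23, 1 was called lower and 17 had an unadjusted p below 0.05 in that direction, where 0.423% and 5.34% of all genes did so. Of the 651 non-coding genes of up to 200 nt other than Snora genes, 79.3% were lower at an unadjusted p below 0.05, a share close to that of the list. The called one, Gm25492, had 6.40 ± 1.09 CPM in HFD and 16.7 ± 5.01 CPM in CF (SD, n = 4 each; log2 fold change -1.38, edgeR, adjusted p = 0.046). Gm22767 differed by -1.75 on the log2 scale (edgeR, adjusted p = 0.057). Terc had 7.23 ± 2.07 and 8.35 ± 1.51 CPM (SD, n = 4 each; log2 fold change -0.21, edgeR, adjusted p = 0.89), so that its diets overlapped while those of 33 of the 40 Snora genes did not.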

How the data were processed

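RNA of flow-sorted CDPs was amplified with the NuGEN Ovation Solo kit, which depletes rRNA, and sequenced in pairs. According to the methods, the authors aligned reads with HISAT2, kept uniquely mapped pairs and made raw counts per gene with StringTie on GENCODE comprehensive. The submitters' processing notes name FastQC, cutadapt and GRCm38. Strandedness and the annotation release are not given in the sources used here. The deposited counts were whole numbers without normalization. How reads that fit several copies of a gene entered the counts cannot be told from the table.

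The column names share a prefix and were matched to samples by sample number. GENCODE vM21 gave names, positions, hosts and sequences, and 52 genes were not matched. A host was the smallest tested gene, not a snoRNA, that held the Snora gene on the same strand. The analysis of counts used edgeR 4.0.16 in R 4.3.3 (filterByExpr, TMM, robust quasi-likelihood fit, diet as the only term, Benjamini-Hochberg over 15837 genes, threshold 0.05), after a test on simulated data. Log2 CPM used a prior count of 2. Copies were found with blastn 2.17.0 (90% identity over 80% of both), folds with RNAfold 2.7.2, and figures were drawn with matplotlib 3.10.9. The p values measure the spread between the 4 libraries of a diet.

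The members and lists were chosen with earlier results of these data known. Named are the called Snora genes, the 12 with the lowest p, the 5 with the highest CPM per kilobase, the 4 least lowered, Snora75, Snora81, Snora3 and the members of hosts with 3 or more, with their hosts, all genes of the H/ACA protein list and the 2 lowest p of the other lists. The host of 1 of them is left out here. Snora20, Snora26, Snora62, Snora65, Snora69, Snora70, Snora74a, Snora57, Snora43, Snora19, Snora78 and the copies were named after their values were seen. Alternatives tried were library size alone, RLE size factors, TMM from protein-coding genes, DESeq2 1.42.0, limma voom 3.58.1, other filters and prior counts, protein-coding hosts only, the replicate number as a block, copies summed and each library left out. Chosen after seeing the data were leaving out the first replicate of both diets, scaling to other short non-coding genes and summing Snora74a with Gm49347.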

Additional observations from a re-analysis of the deposited data

Results flagged for a closer look

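Of 156 groups of 4 libraries looked at (log2 CPM of 40 Snora genes, log2 ratios of 35 pairs and 3 shares of counts, per diet), 5 held a library far from the other 3 by Dixon's 95% limit for the gap divided by the range. Chance gives about 1 in 20 such groups. Snora74a in CF replicate 4 had a log2 CPM of -2.07, against 4.84 to 5.44 in the other CF libraries. Its neighbour Gm49347, which overlaps it, had 264 counts in that library and at most 2 in the other CF libraries.

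The log2 ratio to Snhg12 in CF replicate 3 was 0.14 for Snora61, against 2.19 to 2.53 in the other CF libraries, and 0.24 for Snora16a, against 2.51 to 2.69. Both ratios share the Snhg12 value of that library, which was 99.1 CPM, the highest of all. The log2 ratio of Snora20 to Tcp1 in HFD replicate 1 was -3.59, against -1.83 to -1.56 in the other HFD libraries. The log2 ratio of Snora73b to Snhg3 in HFD replicate 2 was 0.73, against 0.87 to 0.89 in the other HFD libraries.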

How the results depend on the processing

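All values are for HFD against CF. The 4 called Snora genes became 36 with DESeq2, 0 with copies summed, 7 when scaled to other short non-coding genes and 17 without the first replicate of both diets. Leaving out 1 library gave 0 to 11: 11 without HFD replicate 1, 10 without CF replicate 4 and 0 without any of the other 6. At an unadjusted p below 0.05 there were 36 to 39 in these fits, except the one scaled to other short genes, as against 38. Over all genes, 503 were called lower with DESeq2, 0 with copies summed, 350 without both first replicates and 0 to 166 with 1 library left out, against 67, and 11866 were called higher when scaled to other short genes. Calls were 3 with limma voom, where Snora3 was not called (adjusted p = 0.058), and 4 under the other scalings of all genes and both filters, but with library size alone Snora73b was not called (adjusted p = 0.059) and Snora41 was (adjusted p = 0.030). The median log2 fold change lay between -1.65 and -1.21 with 1 library left out. Scaled to other short non-coding genes, it was -0.23, 9 Snora genes had an unadjusted p below 0.05 and 11 had non-overlapping diets, lower in HFD, as did 12.3% of the 651 other short genes. On that scale the log2 fold changes of 13 Snora genes turned positive. Among those named by rule, these were Snora73b (0.13), Snora9 (0.039), Snora52 (0.090), Snora73a (0.20), Snora7a (0.26), Snora68 (0.50), Snora61 (0.44), Snora30 (0.25) and Snora44 (0.31). Library size alone moved the median of all genes to 0.25 and that of the Snora genes to -1.19. The log2 ratio of Snora to host was lower in HFD without overlap in 25 of 35 pairs at either other prior count. Among the 25 pairs with protein-coding hosts it was so in 22. With 1 library left out it was so in 25 to 29 pairs. Removing a library from diets that do not overlap cannot make them overlap, so this count could not fall. The median difference of the log2 ratio lay between -1.67 and -1.15 in these settings. It was -1.46 with the replicate block, for which pairs apart were not counted. With the replicate number as a block, 0 Snora genes and 0 of all genes were called and 37 had an unadjusted p below 0.05. The libraries share only a number: deviations of same-numbered libraries correlated at -0.44, -0.08, -0.23 and -0.18. The cause of these shifts was not tested. The lowest counts, 7 for Snora74a in CF replicate 4 and 9 for Snora75 in HFD replicate 1, are the least precise.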
